A study of Mus musculus with 6 samples.

Results

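The S100 calcium-binding genes S100a1, S100a4, S100a6, S100a8, S100a9, S100a10, S100a11, S100a13 and S100a16 were followed in mouse RPE-choroid, the retinal pigment epithelium (RPE) with the vascular layer beneath it. They were chosen by family name, with no measured value in the rule, though earlier results of these data were known. The 9 genes are 9 of the 15663 that the tables list. Each listed gene had at least 1 count in all 6 libraries. A gene that is not listed may still have had counts in some of them. RNA was sequenced from 3 healthy control mice and 3 mice with subretinal fibrosis (SRF), 1 library a mouse. All were male C57BL/6J mice (strain C57BL/6 in the labels) with a stated age of 8 to 10 weeks. The paper gives this age for the mice as supplied, before the laser model. The control mice were untreated. The SRF mice went through a staged laser model with 4 lesions an eye, lasered in both stages at an interval of 10 days, and their RNA was extracted 20 days past the later stage. RNA came from RPE-choroid as a whole, so lesions and the tissue between them were measured together.

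S100 proteins are small and work mostly as dimers. Each chain carries a pair of EF-hand loops, and calcium binding opens a surface that docks onto target proteins such as annexins, myosin and enzymes. Some family members also leave the cell and act as ligands of pattern receptors. Several are used as markers of cells that take part in scarring, among them S100a4 for fibroblasts and the S100a8 and S100a9 pair for neutrophils and monocytes.

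Totals were between 13667310 and 24356023 counts a library. A total of 10 of 10 RPE markers were listed, at a summed 30830 to 52876 CPM, which are counts scaled to the size of each library. The libraries were not of 1 kind, however. The first control library and the third SRF library held much more photoreceptor RNA than the others, with 15 photoreceptor markers at a mean log2 CPM of 8.26 and 8.27 against 4.30 to 5.52 in the other 4. They are called photoreceptor-rich below, and values without them are given for the S100 genes, their sums and shares, their correlations and their partners as a list. Summed monocyte and macrophage markers, for the most part Lyz2, were 1057 to 1367 CPM in controls and 2527 to 3825 CPM in SRF, and summed RPE markers were 45153 to 52876 CPM and 30830 to 39924 CPM. In bulk tissue, fewer cells of a type and less RNA per cell cannot be told apart.

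The 9 genes lie together on chromosome 3. In the annotation of GRCm38, 14 protein-coding S100a genes span chr3:90511034-93564643. One block of 184688 bp ends at position 90695721 and holds S100a1, S100a13, S100a16, S100a4, S100a6, S100a8 and S100a9 among others, and S100a11 and S100a10 stand in a second block that begins at 93520488, past a gap of 2824766 bp. A total of 121 genes are annotated in the span and 18 were listed, of which 6 were not S100 genes. Of the 10 tested genes in the span 0 were called by edgeR, and 0 had an unadjusted p under 0.05, where 0% and 7.01% of all tested genes did. Without the photoreceptor-rich libraries 0 of 10 were called and 4 had an unadjusted p under 0.05, beside 1.14% and 17.5%.

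Sequence just before the start site is shown for 4 members whose levels moved with those of another member across libraries: S100a13 with its neighbour S100a1, S100a4 with S100a6, and S100a6 with S100a11. Each runs 5′ to 3′ on the plus strand of GRCm38.p6 (RefSeq promoter windows), stops where annotated exons begin, and has motif matches in capitals. S100a1 lies on the minus strand and S100a13 on the plus strand, head to head, and the 42 bases printed for S100a13 at chr3:90514393-90514434 are all that separates them in the annotation, with 54.8% G or C. The others are S100a4 at chr3:90603570-90603769, S100a6 at chr3:90612694-90612881 and S100a11 at chr3:93520296-93520487.
S100a13: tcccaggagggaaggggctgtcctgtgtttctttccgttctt
S100a4: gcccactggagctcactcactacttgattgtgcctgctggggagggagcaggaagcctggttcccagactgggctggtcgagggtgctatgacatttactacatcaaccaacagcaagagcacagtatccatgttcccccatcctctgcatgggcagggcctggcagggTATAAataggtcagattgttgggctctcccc
S100a6: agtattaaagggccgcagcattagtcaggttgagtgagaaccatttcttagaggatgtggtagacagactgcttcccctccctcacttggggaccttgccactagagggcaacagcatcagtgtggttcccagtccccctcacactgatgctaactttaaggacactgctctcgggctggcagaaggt
S100a11: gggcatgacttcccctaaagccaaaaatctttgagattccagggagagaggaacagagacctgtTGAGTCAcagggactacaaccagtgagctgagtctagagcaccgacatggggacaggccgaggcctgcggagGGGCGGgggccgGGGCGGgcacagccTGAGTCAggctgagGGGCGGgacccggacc

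The letters of 4 motifs were searched in the 200 bases before each RefSeq start of the 8 members that have a window. TATAA, the TATA box, read on the gene's strand, was found in S100a4, 31 bases before the start, and in S100a8, 30 bases before it, and 13% of 32851 RefSeq windows of that length hold it. GGGCGG, a GC box, read on both strands, had 3 matches in S100a11 and 1 at the second start of S100a16 (31% of windows). TGANTCA, the AP-1 site, also on both strands, had 2 matches in S100a11 and 1 at that same S100a16 start (5.48% of windows). CCAAT, on both strands, was in none of the members' windows and in 29.3% of all. None of these letters overlapped with each other in the printed sequences, and a match describes the letters and is not evidence of binding.

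The S100 genes differed far more from each other than between groups. Levels of different genes were set side by side as FPKM, fragments scaled by transcript length and library size, the one deposited scale that takes length into account. S100a1 led in each of the 6 libraries, and S100a8 and S100a9 were last. The order by mean FPKM over 6 libraries was S100a1, S100a6, S100a11, S100a10, S100a16, S100a13, S100a4, S100a9 and S100a8.

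S100a1, known for its action on calcium release in muscle and nerve, had FPKM levels of 868, 891 and 692 in control libraries and 965, 814 and 558 in SRF libraries. Its mean of 798 FPKM was rank 57 of the 15663 listed genes, percentile 99.6. S100a6 (calcyclin) followed at 151 to 291 FPKM over the 6 libraries, and was lower than S100a1 by a mean log2 ratio of 1.90 ± 0.38 (SD, 6 libraries), in 6 of 6 libraries.

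S100a11, S100a10 and S100a16 stood close together, at 113 to 238, 122 to 198 and 125 to 179 FPKM. S100a11 was above S100a10 in 3 of 6 libraries, and S100a10 above S100a16 in 5 of 6, with mean log2 ratios of -0.02 ± 0.24 and 0.10 ± 0.14 (SD), so these neighbours did not differ beyond their spread. S100a6 was above S100a11 in 6 of 6 libraries, by 0.35 ± 0.18 on the log2 scale. These 3 genes ranked 491, 493 and 539 of the listed genes.

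S100a13, which takes part in the release of Fgf1 from cells, had 38.8 to 73.3 FPKM. S100a4 had 18.2 to 37.4 FPKM. It also goes by the name fibroblast-specific protein, but its cell source was not tested in this bulk tissue. Each step down, from S100a16 to S100a13 (log2 ratio 1.48 ± 0.29), from S100a13 to S100a4 (1.16 ± 0.38) and from S100a4 to S100a9 (2.78 ± 0.52), was seen in 6 of 6 libraries. At the foot of the order S100a9 had 2.20 to 6.23 FPKM and S100a8 2.09 to 4.84 FPKM, with S100a9 the higher in 4 of 6 libraries (log2 ratio 0.01 ± 0.28). Both were below the middle of the listed genes, at percentiles 36.0 and 35.3.

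**Figure D1:**
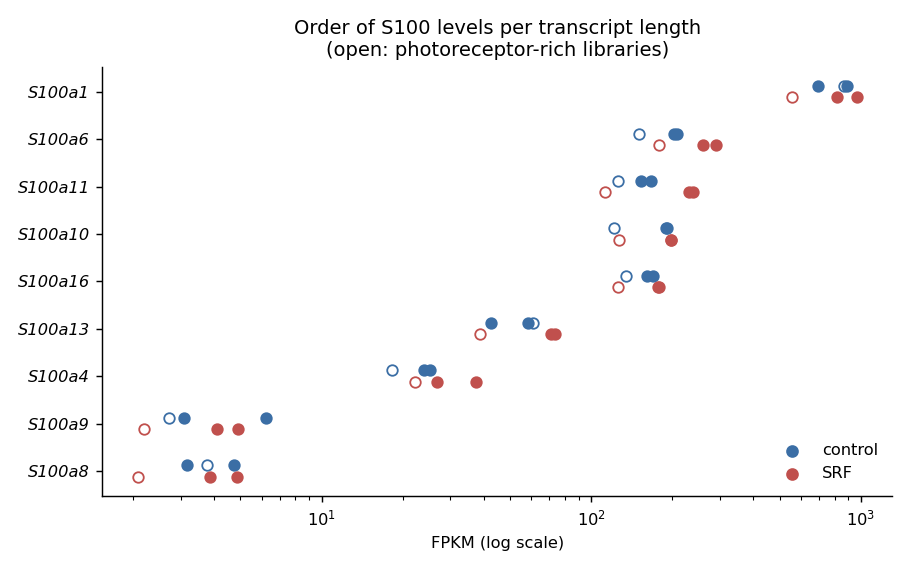
FPKM of the 9 S100 genes (log axis) in each of the 6 libraries, 1 point a mouse, blue for control and red for SRF, open for the photoreceptor-rich libraries. S100a1 is at 558 to 965 FPKM, S100a6, S100a11, S100a10 and S100a16 share the range from 113 to 291, and S100a8 and S100a9 stay under 7 FPKM.

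The family total overlapped between the groups in the 6 libraries. Summed FPKM of the 9 genes was 1486, 1709 and 1483 in control and 1947, 1828 and 1167 in SRF libraries, and the SRF libraries held both the highest and the lowest sum. The lowest was a photoreceptor-rich library, and without that pair both SRF sums were above both control sums, with means of 1888 and 1596 FPKM, a ratio of 1.18. S100a1 made up 52.4% ± 5.87 (SD, n = 3) of the sum in control and 47.3% ± 2.53 (SD, n = 3) in SRF, and the exact permutation test of the S100a1 share gave p = 0.3, two-sided. The share of S100a6 was 12.0% ± 1.93 and 14.9% ± 1.32 (SD), with an exact permutation p = 0.2. The groups overlapped for 9 of 9 shares. Without the photoreceptor-rich pair 4 of 9 shares did not overlap. By CPM, 49.7% of tested genes did not overlap in the same libraries, so this count was not above that share. Means in control and SRF were 10.0% and 12.4% for S100a11 and 3.14% and 3.82% for S100a13. They were 12.0% and 10.5% for S100a10 and 10.4% and 9.42% for S100a16. With 3 mice against 3 the smallest p that the exact test allows is 0.1, and with 2 against 2 no test was made.

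The question put to each gene was whether its RNA level differed between SRF and control RPE-choroid. Of the 9 genes 7 passed the filter of more than 50 counts in at least 2 libraries. None of these 7 was called at an adjusted p under 0.05 and an absolute log2 fold change of at least 0.5 by the quasi-likelihood test of edgeR, adjusted after Benjamini-Hochberg, where 0% of the 13454 tested genes were called. A total of 0 of 7 had an unadjusted p under 0.05, against 7.01% of tested genes, and DESeq2 called 0 of 7, against 1.14%. Fitted changes were positive for 5 genes and negative for 2, with a median log2 fold change of 0.13 beside 0.00 over tested genes. In 0 of the 9 genes did the CPM of the groups lie apart, which 12.7% of listed genes and 13.1% of tested genes did.

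S100a11, S100a6 and S100a4, which dock onto annexins and myosin, had the largest fitted log2 fold changes among the members, and none was called. S100a6 binds Cacybp and annexins. Its CPM were 87.2, 115 and 119 in control and 142, 158 and 100.2 in SRF libraries. The SRF libraries 1 and 2 were above every control, and the third was between the controls. The fitted log2 fold change was 0.32 (SE 0.20, 95% interval -0.16 to 0.80, adjusted p = 0.883 by edgeR with Benjamini-Hochberg adjustment), a fold of 1.25 with an interval of 0.896 to 1.74.

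S100a11, a partner of Anxa1, had 65.4, 87.1 and 79.8 CPM in control and 120.2, 115 and 57.3 CPM in SRF libraries. Its 2 highest values and its lowest were SRF libraries. The log2 fold change was 0.33 (SE 0.28, interval -0.33 to 0.998, adjusted p = 0.948 by edgeR with Benjamini-Hochberg adjustment), an interval of 0.794-fold to 1.997-fold.

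S100a4, which binds nonmuscle myosin (Myh9), had 9.23, 12.9 and 12.1 CPM in control and 13.2, 18.2 and 10.98 CPM in SRF libraries. SRF libraries 1 and 2 were the highest of the 6, and SRF library 3 was below 2 of the controls. The log2 fold change was 0.31 (SE 0.24, interval -0.26 to 0.88, adjusted p = 0.936 by edgeR with Benjamini-Hochberg adjustment). The exons of S100a4 overlap on the same strand with those of the predicted gene Gm42674, which is not listed, so its counts are uncertain as to their source. Summed fibroblast markers were 4522, 5901.5 and 10484 CPM in control and 6991, 9672 and 11430 CPM in SRF libraries, with 10 of 10 listed. Control library 1 was lowest in this sum and in S100a4. The sum was highest in SRF library 3, where S100a4 was below 2 of the controls. The part of fibroblast RNA in the S100a4 values was not tested.

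S100a10 (p11), the light chain that joins Anxa2 in a tetramer and binds plasminogen and its activator at the cell surface, was at 84.9, 133 and 133 CPM in control and 133, 132 and 86.3 CPM in SRF libraries. Each group had a pair of libraries close to 133 CPM and 1 near 86. The log2 fold change was 0.0047 (SE 0.24, interval -0.56 to 0.57), and its sign turned with the normalization. S100a16, a broadly expressed member, gave 152, 192 and 181 CPM and 194, 193 and 137 CPM, and had the narrowest interval, from 0.754-fold to 1.32-fold (log2 fold change -0.0026, SE 0.17).

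S100a1 and its head-to-head neighbour S100a13 had another pattern over the libraries. S100a1 was at 597, 617 and 475 CPM in control and 644, 537 and 374 CPM in SRF libraries, a log2 fold change of -0.12 (SE 0.22, interval -0.63 to 0.39). S100a13 was at 44.4, 42.9 and 30.9 CPM in control and 51.8, 49.5 and 27.5 CPM in SRF libraries, a log2 fold change of 0.13 (SE 0.27, interval -0.50 to 0.75). Both were lowest in SRF library 3 and next lowest in control library 3. Without SRF library 3 the S100a1 value changed sign, to 0.07, and it was 0.11 without both photoreceptor-rich libraries. Skeletal muscle is rich in S100a1, and 7 of 8 muscle markers were listed, with sums of 1079, 1800 and 1122 CPM in control and 2562, 2074 and 703 CPM in SRF libraries. The highest and the lowest sum stood in SRF libraries 1 and 3, as for S100a1 and also for S100a13. Between these extremes the order differed. Control library 1, with a muscle sum of 1079 CPM, held more S100a1 than control library 3, with a sum of 1122 CPM (597 against 475 CPM). The SRF library with a muscle sum of 2074 CPM held less S100a1 than the control library with 1800 CPM (537 against 617 CPM). The part of muscle RNA in the S100a1 values was not tested.

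**Figure D2:**
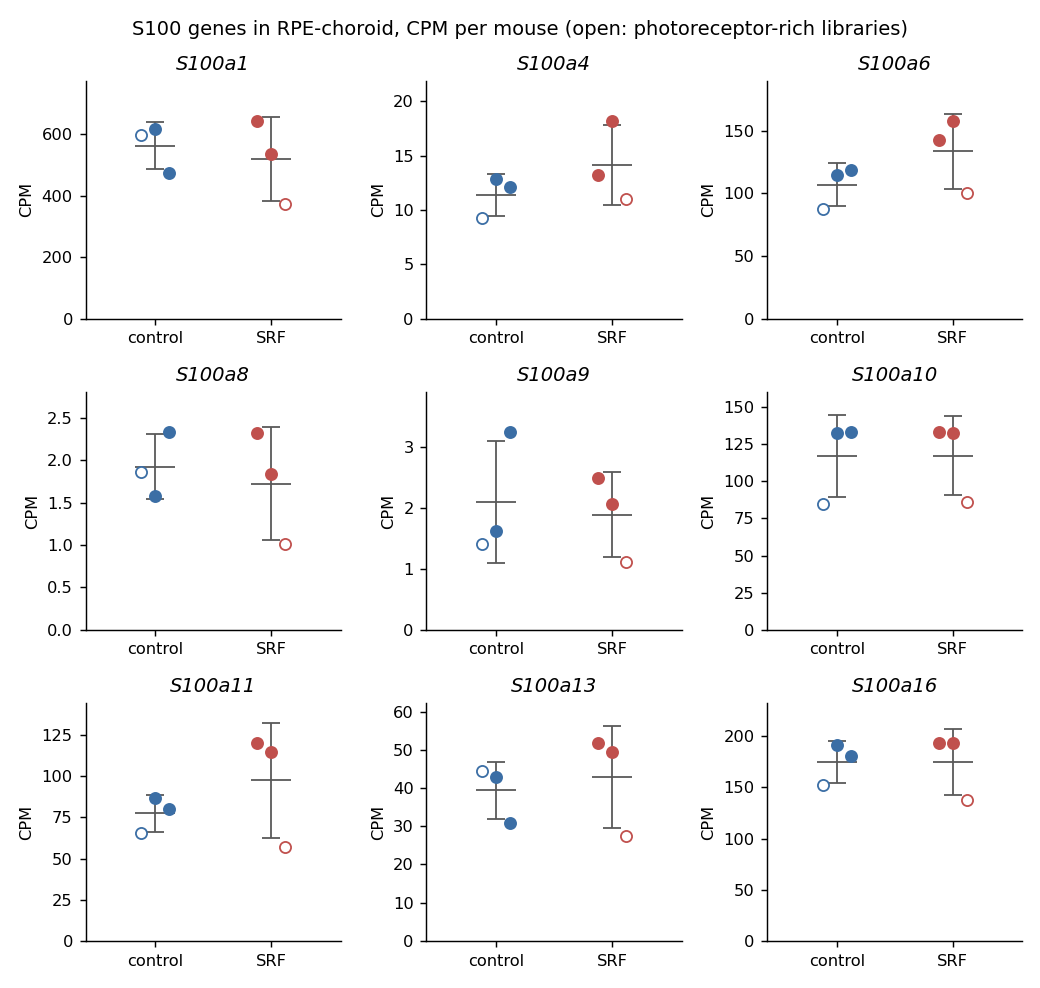
CPM of each S100 gene (linear axes from 0), 1 point a mouse, with the group mean and 1 SD as bars and the photoreceptor-rich libraries open. The groups overlap in all 9 panels, and for S100a4, S100a6, S100a9, S100a10, S100a11 and S100a16 the open points lie at the bottom of both groups.

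S100a8 and S100a9, whose heterodimer calprotectin is among the most abundant proteins of neutrophils and acts on Tlr4, had few counts in these libraries. S100a8 had 25, 29 and 56 counts in control and 43, 33 and 18 in SRF libraries. S100a9 had 19, 30 and 78 counts in control and 46, 37 and 20 in SRF libraries. Control library 3 held the most of each, and SRF library 3 the least of S100a8. Neither gene passed the filter. In CPM the exact permutation test gave p = 0.6 for S100a8 and p = 0.8 for S100a9 (two-sided). With all listed genes in the edgeR fit, the log2 fold changes were -0.16 (interval -1.14 to 0.81) and -0.17 (interval -1.29 to 0.96), and each interval takes in a log2 change of -1 but not one of 1.

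Markers of neutrophils were as scarce. Of 15 such genes, 9 were listed, and Ly6g, Ngp, Elane, Mpo, Stfa2 and Stfa2l1 were not. As listing needs counts in every library, this does not show that they were absent from each group. The sum of the 9 was 19.8, 24.7 and 36.5 CPM in control and 25.7, 24.4 and 28.5 CPM in SRF libraries. The groups overlapped, and control library 3, highest in S100a8 and S100a9, was also highest in this sum. Of the listed genes only Il1r2, Ltf and Camp had their highest value there, at 10.5, 8.18 and 7.55 CPM. Csf3r, Mmp8 and Lcn2 were highest in SRF library 3, Cxcr2 in SRF library 1, and Mmp9 and Retnlg in control library 1. The sum of ocular surface epithelium markers, given below, was also highest in control library 3. The monocyte and macrophage sum, in contrast, lay higher in each SRF library than in each control, as given above. Of the 10 genes of that list 4 had an unadjusted p under 0.05 and a positive change and 1 a negative one. Of its markers of inflammatory monocytes, Ccr2 was at 12.3, 12.4 and 11.8 CPM in control and 17.0, 18.5 and 11.4 CPM in SRF libraries, and Ly6c2 at 3.42, 2.88 and 3.00 CPM and at 1.57, 1.17 and 1.29 CPM. The part of either cell type in the S100a8 and S100a9 values was not tested.

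Of 8 further S100 genes 4 were listed. S100b, the glial member, was as abundant as the middle of the family, at 222, 208 and 166 CPM in control and 273, 228 and 140.2 CPM in SRF libraries (log2 fold change 0.11, SE 0.25, interval -0.49 to 0.70). Without the photoreceptor-rich libraries it was 0.42 (SE 0.16, adjusted p = 0.231 by edgeR with Benjamini-Hochberg adjustment). S100a14, an epithelial member, was at 1.19, 9.98 and 15.9 CPM in control and 4.76, 6.01 and 4.26 CPM in SRF libraries. Its log2 fold change was -0.86 with an SE of 0.75, the widest of the family. Without the photoreceptor-rich libraries it was -1.27 (SE 0.29, adjusted p = 0.085 by edgeR with Benjamini-Hochberg adjustment), and both SRF values were under both control values. Ocular surface epithelium markers were likewise lowest in control library 1 and highest in control library 3, with sums of 405, 1374 and 2677 CPM there and 1359, 1381 and 804 CPM in SRF libraries, and their part in S100a14 was not tested. S100a3 and S100a7a were listed at 0.270 to 1.23 CPM and 0.501 to 1.13 CPM and were not tested. S100a5, S100a7l2, S100g and S100z were not listed. In all, 0 of the 2 tested were called by edgeR.

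Proteins that S100 members bind gave 36 listed genes of 37, of which 32 were tested. In the edgeR fit 0 of 32 were called. Fitted changes were positive for 20 and negative for 12, with a median log2 fold change of 0.08, and 5 of 32 had an unadjusted p under 0.05, beside 7.01% of tested genes. The CPM of the groups did not overlap for 6 of the 36, beside 12.7% of listed genes. Without the photoreceptor-rich libraries 0 of 32 were called and 6 had an unadjusted p under 0.05, beside 1.14% and 17.5% of tested genes, 18 did not overlap, beside 49.7%, and the sign turned for 6, Anxa1 and Anxa2 among them. Plau, the urokinase plasminogen activator, had 1 to 14 counts in control and 11 to 23 in SRF libraries and did not pass the filter.

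Among receptors, Tlr4 was at 8.71, 8.73 and 12.4 CPM in control and 9.68, 13.5 and 12.5 CPM in SRF libraries (log2 fold change 0.25, SE 0.23, and 0.12 without the photoreceptor-rich libraries). Ager, the receptor for advanced glycation end products to which many S100 proteins bind, was at 0.744 to 1.38 CPM in control and 1.29 to 1.89 CPM in SRF libraries, too low to be tested by the filter. Cd36, a scavenger receptor that takes part in lipid uptake bound to S100a8 and S100a9, was at 53.6, 67.0 and 52.4 CPM in control and 73.5, 75.4 and 84.2 CPM in SRF libraries. Each SRF value was above each control value, with a log2 fold change of 0.43 (SE 0.14, adjusted p = 0.516 by edgeR with Benjamini-Hochberg adjustment).

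Among the tested partners the largest log2 fold change was that of Itgb2, the beta chain of leukocyte integrins, whose activity on neutrophils S100a9 can raise. Its CPM were 16.3, 17.3 and 17.2 in control and 29.6, 49.2 and 43.6 in SRF libraries, without overlap. The log2 fold change was 1.27 (SE 0.19, interval 0.81 to 1.73, adjusted p = 0.198 by edgeR with Benjamini-Hochberg adjustment). DESeq2 called it, at an adjusted p of 6.12e-05 and a log2 fold change of 1.26. In the 4 libraries outside the photoreceptor-rich pair edgeR gave 1.19 (SE 0.23, adjusted p = 0.051 with Benjamini-Hochberg adjustment). Itgb2 is made by leukocytes, and it lay beside the macrophage marker sums given above, whose part in it was not tested.

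Annexins, the best known S100 targets, gave small values with intervals on both sides of 0. Log2 fold changes were 0.18 (SE 0.32) for Anxa1, 0.01 (SE 0.23) for Anxa2, 0.08 (SE 0.12) for Anxa6 and 0.12 (SE 0.17) for Anxa11. In the 4 libraries outside the photoreceptor-rich pair they were -0.08, -0.13, 0.04 and 0.23. Anxa2, the partner of S100a10, was at 343, 486 and 643 CPM in control and 489, 540 and 454 CPM in SRF libraries. Plat, the tissue plasminogen activator that S100a10 binds, was at 119, 123 and 131.5 CPM in control and 129, 193 and 187 CPM in SRF libraries, and a single SRF value lay among the controls (log2 fold change 0.45, SE 0.17, adjusted p = 0.641 by edgeR with Benjamini-Hochberg adjustment).

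Of the intracellular partners, Cacybp, the calcyclin-binding protein named after S100a6, was at 128, 113 and 126 CPM in control and 105, 102 and 96.3 CPM in SRF libraries. Each SRF value was under each control value (log2 fold change -0.28, SE 0.10, adjusted p = 0.622 by edgeR with Benjamini-Hochberg adjustment). Myh9 was at 40.9, 52.8 and 37.6 CPM and 61.2, 68.2 and 35.1 CPM (0.33, SE 0.26, on the log2 scale), and like S100a4 had its highest values in SRF libraries 1 and 2. Myh9 was at 0.52 without the photoreceptor-rich libraries (SE 0.18, adjusted p = 0.201 by edgeR with Benjamini-Hochberg adjustment). Fgf1, carried out of cells with S100a13, had a log2 fold change of -0.14 (SE 0.14), and of -0.26 (SE 0.16) without the photoreceptor-rich libraries. Ctsb, a lysosomal protease, was at 1718, 2077 and 2174 CPM in control and 2263, 2752 and 2781 CPM in SRF libraries (0.39, SE 0.14, adjusted p = 0.609 by edgeR with Benjamini-Hochberg adjustment), with 0.24 (SE 0.14) when the photoreceptor-rich libraries were left out.

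**Figure D3:**
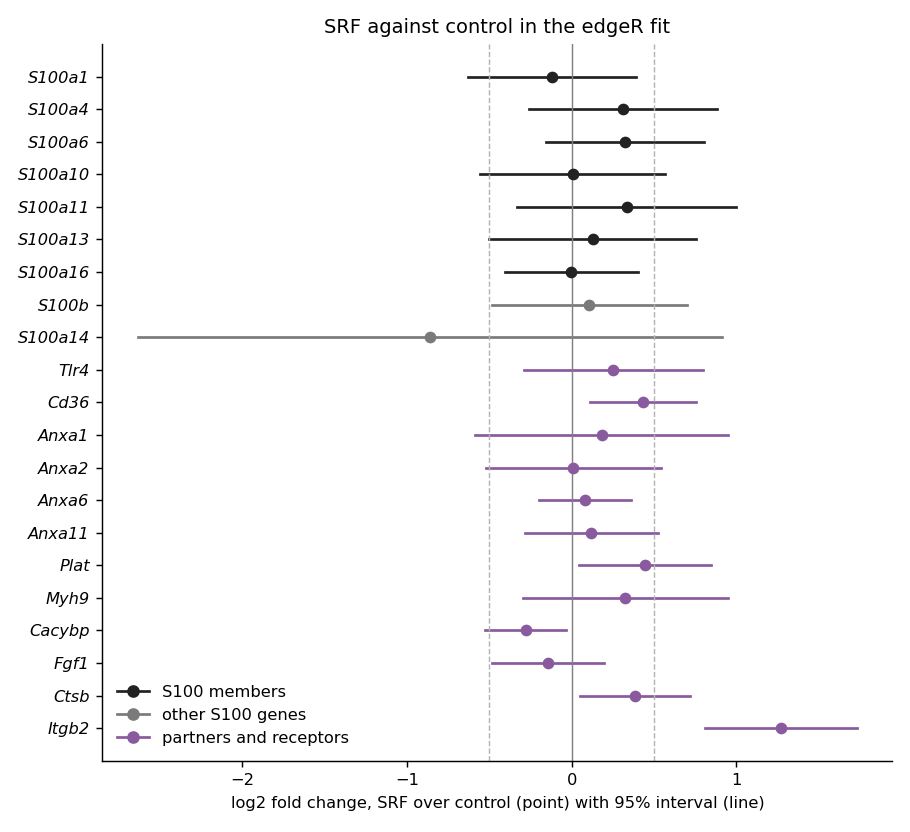
Log2 fold change of SRF over control (points) with 95% intervals (lines) from edgeR for the 7 tested S100 members, 2 further S100 genes and 12 partners and receptors, with dashed lines at the threshold of 0.5 on either side. The members' intervals run from -0.63 to 0.998 and each of the 7 contains 0, while Itgb2 at 1.27 lies apart.

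Within the family, the photoreceptor-rich pair stood apart from the other 4 libraries. S100a4, S100a6, S100a10, S100a11 and S100a16 were lower in both of these libraries, 1 of each group, than in each of the other 4. That is 5 of 7 tested members, against 10.4% of the 13454 tested genes. The mean CPM of the pair over that of the other 4 was 0.610 for S100a11, 0.644 for S100a10, 0.702 for S100a6, 0.716 for S100a4 and 0.762 for S100a16. For S100a1 and S100a13 it was 0.854 and 0.821, and control library 1 was not low in either. As the pair was told apart by photoreceptor RNA and not by a label, this is a description of 6 libraries. The pair was also lowest in some of the other marker sums, but not in all. Those of ocular surface epithelium were 405 and 804 CPM, against 1359 to 2677 CPM in the other 4. Skeletal muscle sums were 1079 and 703 against 1122 to 2562 CPM, and smooth muscle sums 751.5 and 591 against 824 to 911 CPM. Fibroblast sums were 4522 CPM in control library 1 and 11430 CPM in SRF library 3, the lowest and highest of the 6 libraries. Endothelium sums of the pair were 1477.5 and 1384 CPM, against 1441 to 1737 CPM in the other 4. The parts of retinal, epithelial and muscle RNA in the S100 values were not tested.

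Without that pair 2 libraries a group remained, and the spread was estimated from those 4. S100a4, S100a6, S100a11, S100a13 and S100a16 were then higher in both SRF libraries than in both controls, 5 of 7 tested members. Of all tested genes, 49.7% did not overlap and 25.5% did so with SRF the higher. For S100a16 the margin was small, at 194 and 193 CPM in SRF against 192 and 181 CPM in control libraries. The 5 genes were positively correlated with each other in these libraries, so they are not 5 separate observations. None of the 7 was called by edgeR in these 4 libraries, against 1.14% of tested genes. An unadjusted p under 0.05 was found for 3 of 7, against 17.5%. These were S100a11 with a log2 fold change of 0.50 (SE 0.13, adjusted p = 0.109 by edgeR with Benjamini-Hochberg adjustment), S100a13 with 0.46 (SE 0.17, adjusted p = 0.238) and S100a6 with 0.36 (SE 0.13, adjusted p = 0.210).

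The pair itself, 1 library against 1, allowed no test and gave other values. SRF library 3 over control library 1 had a CPM ratio of 0.877 for S100a11 and 0.620 for S100a13, against 1.41 and 1.37 in the other 4 libraries. For S100a6 and S100a4 it was 1.15 and 1.19, against 1.29 and 1.26, the same direction in both kinds of library. For S100a1 it was 0.627 against 1.08. Whether the ratios differ between the kinds of library was not tested. With the photoreceptor level of each library as a term in the edgeR fit, S100a6 had a log2 fold change of 0.28 (adjusted p = 0.572 with Benjamini-Hochberg adjustment), S100a11 0.22 (adjusted p = 0.781) and S100a13 0.06 (adjusted p = 0.977).

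**Figure D4:**
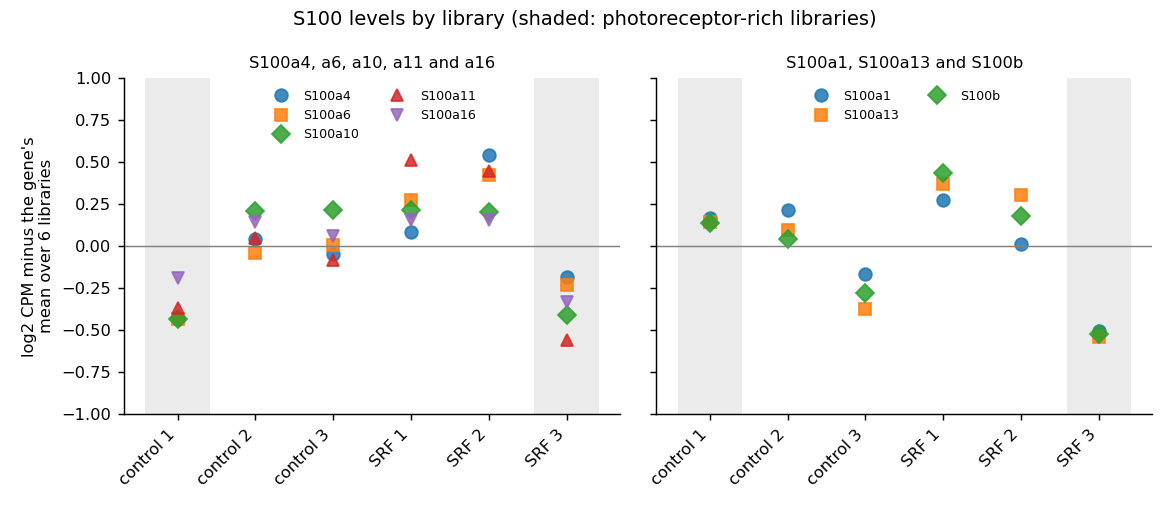
Log2 CPM of each gene minus its mean over the 6 libraries, by library, with the photoreceptor-rich libraries shaded. S100a4, S100a6, S100a10, S100a11 and S100a16 (left) are below 0 in both shaded libraries, while S100a1, S100a13 and S100b (right) are above 0 in control library 1 and lowest in SRF library 3.

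**Figure D5:**
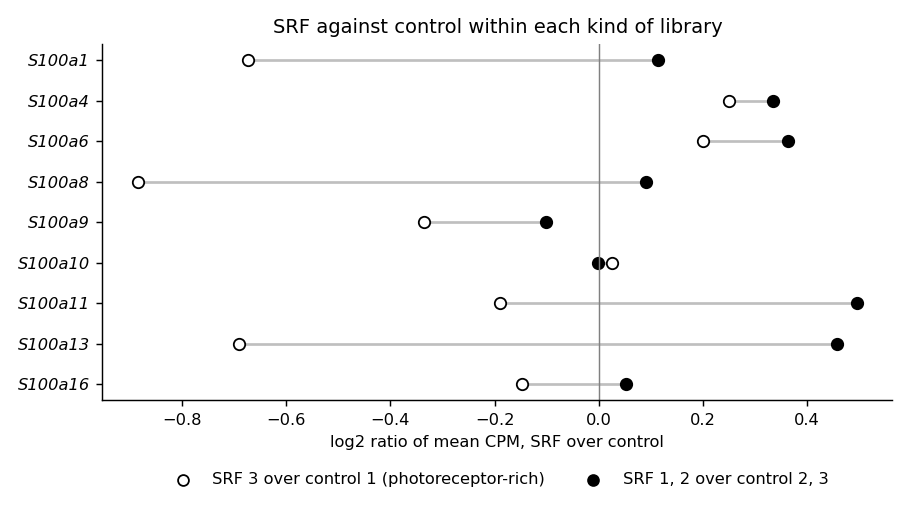
Log2 ratio of mean CPM, SRF over control, for each S100 gene within the photoreceptor-rich pair (open, 1 library a group) and within the other 4 libraries (filled, 2 a group). S100a4 and S100a6 are above 0 in both, whereas S100a1, S100a8, S100a11, S100a13 and S100a16 are below 0 in the pair and above it in the other 4.

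Levels of the 7 tested members were positively correlated over the 6 libraries, which share depth, tissue pieces and the photoreceptor-rich pair. Pearson's r of log2 CPM was positive for 21 of 21 pairs, with a median of 0.74, a range of 0.15 to 0.95 and 7 pairs over 0.8. The mean was 0.67 over member pairs and 0.00 over all pairs of tested genes. Scaling libraries to a common level holds the mean over all pairs near 0, so it does not show how unusual 0.67 is. The closest were S100a10 with S100a16 (0.95), S100a4 with S100a6 (0.94) and S100a6 with S100a11 (0.91). S100a1 was closest to S100a13 among members (0.89), and S100a13 was closer still to S100b (0.98), which lies on another chromosome. The loosest pair was S100a1 with S100a4 (0.15). The points are 6 libraries in separate clusters, so these are descriptions. Over the 4 libraries left without the photoreceptor-rich pair, 15 of 21 pairs were positive, with a median of 0.57, a mean of 0.37 and a range of -0.72 to 0.97. S100a10 with S100a16 then had an r of -0.42, S100a4 with S100a6 0.85, S100a6 with S100a11 0.90 and S100a1 with S100a13 0.77, so the high value of the first pair rested on the photoreceptor-rich libraries.

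By the same measure, the tested genes whose levels were most like those of a member had r of 0.985 to 0.998 over 6 libraries. They were Rnf150, Hspe1 and Rack1 for S100a1, Fgfr1, Tcf3 and Fam53a for S100a4, and Ttc7, Apbb2 and Ccdc102a for S100a6. For S100a10 they were Map3k20, Kcnq1 and Perm1, and for S100a11 they were Tmem14c, Klhl40 and Ccnd2. For S100a13 they were C1qtnf4, Mrpl33 and Ubxn4, and for S100a16 Cgnl1, Hhex and Bcam. With 13454 genes compared over 6 points, values this high are a matter of the number compared as well as of likeness.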

How the data were processed

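RNA-seq of RPE-choroid from 3 control and 3 SRF mice was analysed. The authors filtered reads, counted them per gene with StringTie and deposited counts, which are not normalized, and FPKM values, which the authors scaled by transcript length and mapped reads. The aligner, genome build and strandedness are not given in the sources used here. Of 15663 identifiers, 15659 were found in GENCODE M21 on GRCm38, which was used for symbols and positions.

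The 13454 genes that exceeded 50 counts in 2 or more libraries were tested with edgeR 4.0.16 (quasi-likelihood, TMM, R 4.3.3), group as the one term, and Benjamini-Hochberg adjustment over these genes. CPM used the TMM library sizes. Calls needed an adjusted p under 0.05 and an absolute log2 fold change of at least 0.5. The script was tested on simulated data. The median SE was 0.19 on the log2 scale, which limits what can be seen. The alternatives were DESeq2 1.42.0, limma 3.58.1, other normalizations, filters and covariates, FPKM with pseudocounts of 1 and 0.1, and leaving out libraries. Leaving out both photoreceptor-rich libraries, and DESeq2 with the photoreceptor level as a term, were chosen after seeing the data. Members and gene lists were chosen with earlier results of these data known. All 9 members were named, partners where the unadjusted p was under 0.05 or where listed beforehand for their role, and for each tested member the 3 most similar genes.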

Additional observations from a re-analysis of the deposited data

How the results depend on the processing

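In 21 alternatives to the fit reported, no S100 member was called, and the adjusted p of members ranged from 0.109 to 1.0. S100a4, S100a6 and S100a11 kept a positive log2 fold change in each of the 21, at 0.09 to 0.46, 0.18 to 0.49 and 0.15 to 0.60. S100a1 (-0.12) ranged from -0.31 to 0.070 when 1 library was left out, and was 0.11 without both photoreceptor-rich libraries. S100a13 (0.13) ranged from -0.03 to 0.37 when 1 library was left out. S100a16 (-0.0026) ranged from -0.094 to 0.14 when 1 was left out, and was 0.015 with upper quartile normalization, 0.036 by limma on log2(FPKM + 1) and on log2(FPKM + 0.1), and 0.053 without both photoreceptor-rich libraries. S100a10 (0.0047) ranged from -0.18 to 0.18 when 1 was left out, and was -0.0033 by DESeq2 and with RLE size factors, -0.0008 without both photoreceptor-rich libraries, -0.038 with the photoreceptor level as a term and with the length trend removed, -0.044 by DESeq2 with that level, and -0.029 with the GC trend removed. The cause of these sign changes was not tested. Positive members numbered 5, and 3 to 7 when 1 library was left out (3 without SRF 1, 7 without SRF 3). Shares that did not overlap between groups numbered 0, and 0 to 3 when 1 library was left out. Partners called numbered 1 by DESeq2 (Itgb2). Calls over tested genes, 0 by the edgeR fit, were 153 by DESeq2, 257 by DESeq2 with the photoreceptor level, 154 without both photoreceptor-rich libraries, 2 by limma on FPKM with either pseudocount, 1 each by limma-voom, with legacy = FALSE, upper quartile normalization, all genes, the CPM filter or the photoreceptor level as a term, and 0 to 5 when 1 library was left out (5 without control 1). Same-numbered control and SRF libraries deviated with correlations of -0.48, 0.49 and -0.30. These values cannot decide whether the numbers pair mice, as the photoreceptor-rich libraries carry unlike numbers. The groups were separate mice, and the fit reported held no pairing. With the replicate block 0 members, 0 partners and 0 genes were called, and 1206 tested genes instead of 943 had an unadjusted p under 0.05. Depth limits S100a8 and S100a9, with 18 to 78 counts a library.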
